A study of Triticum aestivum with 24 samples.

Results

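Flag leaves of the winter wheat cultivar TAM 112 were compared between grain filling and heading in plants of the wet water treatment. The comparison used the arrays titled for wet TAM 112 at either stage, 3 at heading and 3 at grain filling, which are 6 of the 24 arrays of the study. The remaining arrays hold TAM 112 grown dry and the cultivar TAM 111 grown wet or dry, at the same stages and again with 3 arrays in each group. All plants were raised in a greenhouse. Plants were kept at 90% or 50% of field capacity, and since the labels do not say which level is which treatment, the higher was taken as wet and the lower as dry. Total RNA was extracted with Trizol, labelled with biotin and hybridised to the Affymetrix wheat array, 1 sample per array. The labels name no transgene or mutant allele, and they give the stage of the plants and no age. Whether the 3 samples of a group came from different plants is not stated in the labels, and the p-values cover only the variation among those samples, part or all of which may be technical.

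The flag leaf is the last leaf to unfold before the ear emerges, and in wheat it supplies much of the sugar that the ear receives. At heading the blade is fully expanded and photosynthesises, and its cells have largely stopped dividing. During grain filling the same leaf exports sugar to the kernels, and later in that period it ages and releases nitrogen from its proteins, with the enzyme Rubisco as the main store.

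Each array carries 61290 probe sets, and the value of each is a MAS5 signal on a linear scale. Of the 61179 that are not controls, 37516 exceeded a signal of 69.0 (the median over all probe sets and arrays) on at least 3 of the 24 arrays and were tested. Changes are given on the scale of log2(signal + 11.71) as grain filling minus heading, so that folds of dim probe sets are understated. A probe set was called at a limma adjusted p below 0.05, with Benjamini-Hochberg adjustment over all tested probe sets. The 6 arrays had median signals of 66.05 to 77.32. Arrays of the same group correlated at 0.949 to 0.964 across probe sets, against 0.937 to 0.958 for arrays of the opposite stage. As a measure of RNA integrity, the 3' probe set of GAPDH minus its 5' probe set, in log2 units, was -0.94 ± 0.411 (SD, n = 3) at heading and -2.73 ± 1.25 at grain filling. For actin it was 0.611 ± 0.938 and 1.2 ± 0.504. The mean log2 signal of 9 spiked control probe sets was 11.11 ± 0.201 at heading and 11.54 ± 0.365 at grain filling. The GAPDH values of the heading and grain filling arrays did not overlap, while those of actin and of the spiked controls did. On average GAPDH was lower and actin higher at grain filling. The part of these measures in the results was not tested.

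The arrays carried the RNA of green leaf tissue. The signals of 7 photosynthesis genes (brightest probe set of each) summed to between 248900 and 285600 at heading and to between 278500 and 295700 at grain filling. Of 15 genes for grain storage proteins and inhibitors, 11 had mean signals below 69.0 at either stage. Without the gene ALP, the other 14 summed to 476.8 to 691.2 at heading and 511.6 to 936.3 at grain filling. ALP stood apart because its brightest probe set read 6934 ± 437 at heading and 7072 ± 111 at grain filling, while its other 3 probe sets had group means of at most 20.91. In the anther and pollen list PRO1, a profilin, was bright, at 26460 ± 2560 at heading and 29780 ± 3400 at grain filling. Without PRO1 the other 2 genes of that list summed to 50.07 to 112 at heading and 13.68 to 78.47 at grain filling. Of the histone and chromatin genes, the 5 histones, most of which are made in dividing cells, summed to 2280 to 3332 at heading and 1459 to 3075 at grain filling; with the brighter chromatin protein gene Hmgb3 the sums were 16160 to 19200 and 15010 to 17930. In whole leaves, fewer cells of a type and less RNA per cell cannot be told apart, here or in any result that follows.

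Between heading and grain filling, 1623 probe sets (4.33% of those tested) changed in wet TAM 112. Higher signals at grain filling were found for 772 (2.06%) and lower signals for 851 (2.27%). The median change of all tested probe sets was 0.00251 on the log2 scale. Among the calls, the median fold was 1.77 for rises and 1.88 for falls. At least 2-fold changes numbered 289 upwards (0.77%) and 370 downwards (0.986%), together 1.76% of tested probe sets. At 4-fold or more there were 36 rises (0.096%) and 83 falls (0.221%), and at 10-fold or more 5 rises (0.0133%) and 10 falls (0.0267%). The arrays of both stages did not overlap for 751 of the 772 rises and 842 of the 851 falls. Over all tested probe sets they did not overlap for 22.7%, with grain filling above for 11.1% and below for 11.6%. Separated arrays were thus common, and where they are given below for an uncalled gene they are not a result about that gene. The plot of change against signal level shows calls of either sign over the whole range of signals. Of 4 equal classes of tested probe sets by mean signal, the share called was 0.96% in the dimmest and 9.05% in the brightest, where the median size of a called change was 0.633 on the log2 scale, against 1.75 in the dimmest. The filter on low signals was passed only with the help of the wet grain filling arrays by 12 of the rises, and only with the wet heading arrays by 7 of the falls.

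**Figure D1:**
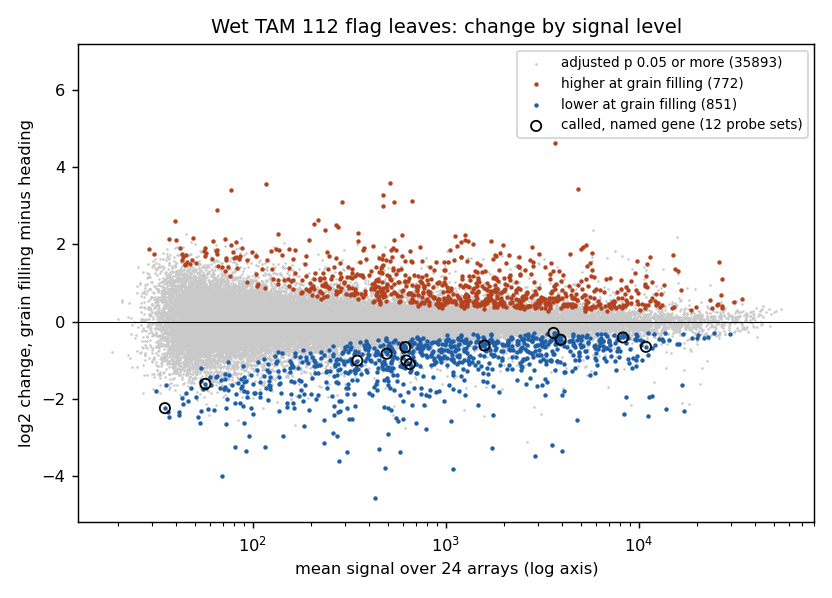
Log2 change from heading to grain filling in wet TAM 112 (vertical axis) against the mean signal over 24 arrays (log axis) for 37516 tested probe sets. The 772 rises (red) and 851 falls (blue) spread over all signal levels, and the 12 called probe sets of named genes (black rings) all lie below 0.

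The counts depended on single arrays. Without heading array 1, heading array 3 or grain filling array 1, the fit called 867, 709 and 622 probe sets. With only the 6 arrays of the comparison in the fit, in place of all 24, it called 631, of which 556 were among the 1623.

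The gene table that comes with the array pairs 1273 probe sets with 771 genes, and 59906 probe sets have no gene in it. Only 102 of these genes have a name beyond a locus number, and 78 of the 102 were tested, on 133 probe sets. Taken by the brightest probe set of each, 0 of the 78 named genes rose, 4 fell and 74 were not called, with a median change of -0.04 on the log2 scale. Over all 133 probe sets, 12 (9.02%) were called, from 8 genes, and all 12 were lower at grain filling. Among all tested probe sets 4.33% were called and 2.27% were called lower, and in the brightest class the share called was 9.05%, so the share among named genes is not a result about them. The genes were GA20ox1d, wcH2B-8, Tubb5, DMAS1, LTP3, GSTZ1, APRT and eIF4E. The plot of these 12 probe sets shows each array, and in every panel the heading arrays lie above the grain filling arrays. The same was so for 842 of all 851 falls, so this adds nothing to the calls.

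**Figure D2:**
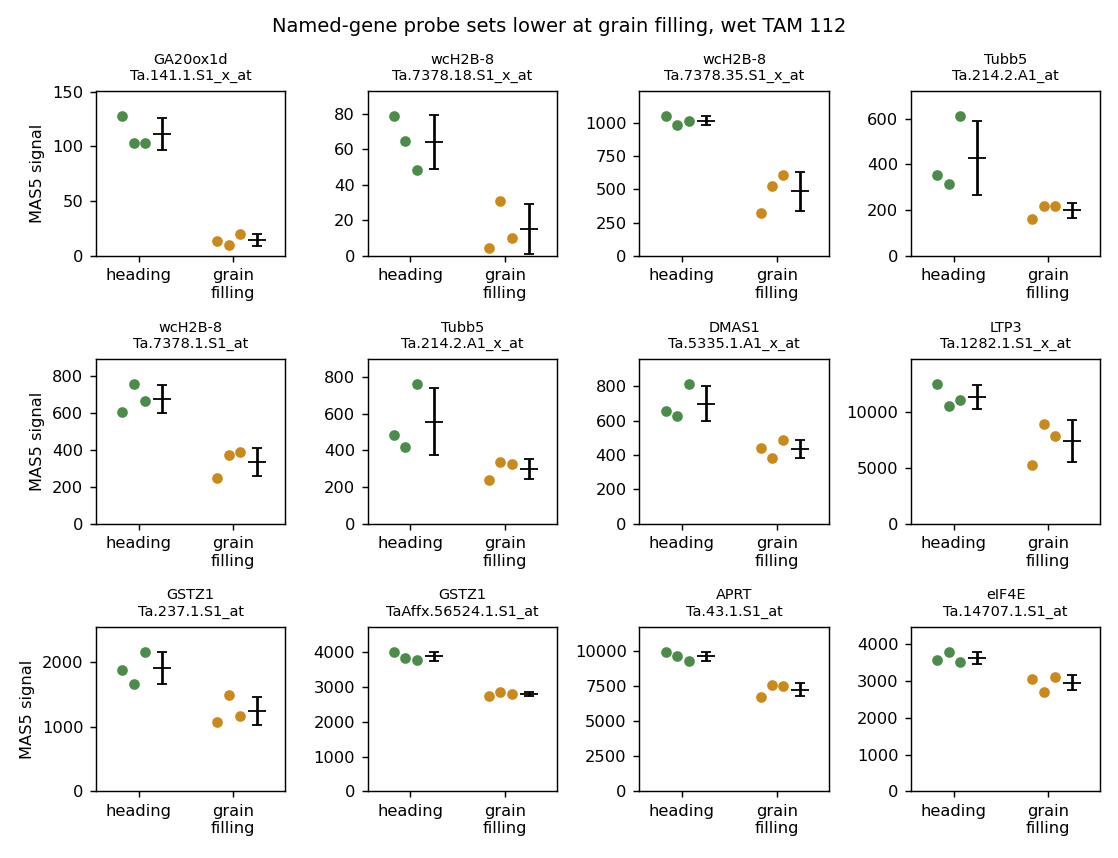
MAS5 signals (vertical axes, from 0) of the 12 called probe sets of named genes in wet TAM 112. Points are the 3 arrays of heading (green) and grain filling (orange), and black marks are means ± SD. The 2 stages do not overlap in any panel, nor for 842 of all 851 falls. On the scale of log2(signal + 11.71) the fall is 2.15-fold on the clearest probe set of wcH2B-8 and 1.23-fold for eIF4E.

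GA20ox1d encodes a gibberellin 20-oxidase, which makes precursors of the growth hormone gibberellin. One of its 2 probe sets read 127.6, 102.9 and 102.8 on the heading arrays and 13.07, 10.07 and 20.15 on the grain filling arrays. All heading arrays lay far above all grain filling arrays, which were close to the value of 11.71 added before the log2 step. The change was -2.24 ± 0.376 (SE, limma adjusted p = 0.00134), or 4.74-fold on that scale. With signals near background at grain filling the size depended on the value added, from -2.91 with 1 to -1.37 with 4 times 11.71, and its rank among the falls cannot be read from it. This probe set was above the filter level on 5 of 24 arrays and, without the heading arrays, on 2, so that it was tested only because of its heading signal. Its name ends in x_at, which marks probes that also match other sequences, so its signal may not be that of GA20ox1d alone. Its heading mean was 20.07 in wet TAM 111 and 16.02 in dry TAM 112, where the second probe set read 108.9 and 121.9. Called probe sets of LTP3, DMAS1 and Tubb5 also include names with this ending. The second probe set of the gene read 59.6, 72.63 and 99.4 at heading and 14.44, 100.9 and 6.562 at grain filling. There grain filling array 2 was the highest of all 6, and the change of -1.21 was not called (95% interval -2.40 to -0.03, limma adjusted p = 0.261). The other gibberellin 20-oxidases were dim as well, at -0.87 for GA20ox1a and -0.72 for GA20ox1b, with limma adjusted p = 0.516 and 0.487. Of the 3 genes of this list, 0 were called by the brightest probe set, and their median was -0.87.

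Histone H2B packs DNA into nucleosomes, and its synthesis is tied to DNA replication in most plant cells. The H2B gene wcH2B-8 fell on 3 of its 5 tested probe sets. The clearest of these read 1053, 988.6 and 1015 at heading and 319.4, 528.7 and 607.3 at grain filling. The heading arrays lay within a narrow band and every grain filling array was well below it (-1.10 ± 0.177, limma adjusted p = 9.18e-04, 2.15-fold). A second went from 677.4 ± 76.7 (SD, n = 3) to 335.4 ± 77.1 (limma adjusted p = 0.0151). A dim one went from 64 ± 15.1 to 14.92 ± 14 (limma adjusted p = 0.0122). When single arrays were left out, the second kept its call in 3 of 6 fits (limma adjusted p up to 0.114, without grain filling array 1) and the dim one in 4 of 6 (up to 0.0892, without the same array). The probe set with the highest mean over all arrays read 812.3, 945.4 and 1003 at heading and 276.6, 898.1 and 775.8 at grain filling. Grain filling array 1 was far below the other arrays there, array 2 overlapped with heading, and the change of -0.65 was not called (limma adjusted p = 0.266). The names of several of these probe sets end in x_at, which marks probes that also match other sequences, so that signals of related histone genes may be mixed.

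The other histone genes gave 0 calls of either direction. By the brightest probe set of each gene, the list of 5 tested genes had a median of -0.03. On these probe sets, for wcH2A-3 the change was 0.01 (95% interval -0.27 to 0.29), for wcH2A-9 -0.21 (-0.71 to 0.29) and for wcH2B-6 0.05 (-0.85 to 0.96). Dimmer probe sets gave lower values. The second of wcH2A-3 went from 185.2 ± 51 to 91.64 ± 22.2 without overlap (-0.92, 95% interval -1.54 to -0.29, limma adjusted p = 0.0874), and it fell in wet TAM 111 (-1.26, limma adjusted p = 0.0246). Of the 3 other tested probe sets of wcH2A-9, 2 had no overlap, at -0.89 (-1.49 to -0.29) and -1.50 (-2.70 to -0.30), with limma adjusted p = 0.0837 and 0.154. The histone H2A genes were thus not called on any probe set, while their intervals on 3 probe sets lay below 0. Hmgb3, a chromatin protein of the HMG box family, stayed bright at 14570 ± 2020 and 14270 ± 1670 (-0.03, 95% interval -0.26 to 0.20).

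Tubulins build the microtubules that guide cell division and the laying down of cell walls. Among 7 genes for tubulins and cell wall enzymes, Tubb5, a beta-tubulin, was called. Its brightest probe set read 482.3, 421.3 and 763.5 at heading and 237.5, 335.5 and 327.4 at grain filling. Heading array 3 stood above the other heading arrays, yet even the lowest heading array exceeded the highest at grain filling (-0.83 ± 0.197, limma adjusted p = 0.0173, 1.78-fold). Another gave -1.01 ± 0.249 (limma adjusted p = 0.0219). The other 2 probe sets of Tubb5 gave -0.15 and 0.07, neither of them called. The calls of Tubb5 were lost without heading array 3 (limma adjusted p = 0.126 and 0.153 for these 2 probe sets) and without grain filling array 1 (0.122 and 0.127).

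None of the other beta-tubulins was called. The change was 0.49 for tubb1 (95% interval 0.00 to 0.98), -0.11 for tubb2 (-0.69 to 0.48), -0.04 for tubb3 (-0.35 to 0.27) and -0.07 for Tubb4 (-0.31 to 0.18). The alpha-tubulin TUBA changed by 0.13 (-0.04 to 0.30). XTH, a xyloglucan-modifying enzyme of the cell wall, scattered from 18.47 to 162.1 at heading and from 19.96 to 185.4 at grain filling and gave 0.09 with an interval of -1.44 to 1.63.

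DMAS1 encodes deoxymugineic acid synthase, the enzyme that makes the iron-binding compound grasses use for iron uptake and transport. The called probe set read 653.6, 628 and 814.4 at heading and 442.3, 380.5 and 486.6 at grain filling, again with no overlap. The fall was -0.66 ± 0.146 (limma adjusted p = 0.0109, 1.58-fold), and it was not called without heading array 3 (limma adjusted p = 0.0791). The brightest probe set went from 1244 ± 37 to 1067 ± 61.8 and was not called (-0.22, 95% interval -0.45 to 0.01). In the same list TPC1, a vacuolar calcium channel, gave -0.33 (-0.63 to -0.03, limma adjusted p = 0.222) and ha1, a plasma membrane proton pump, 0.06 (-0.12 to 0.24).

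Defence genes had the lowest median of any list with 5 or more tested genes, at -0.65, and 1 of 5 was called. LTP3, a lipid transfer protein, is secreted and binds lipids in the cell wall and cuticle. It read 12550, 10520 and 11070 at heading and 5289, 8956 and 7895 at grain filling. Grain filling array 1 was the lowest of all, and no array overlapped with the other stage (-0.65 ± 0.171, limma adjusted p = 0.031, 1.57-fold). Without grain filling array 1 the change was -0.43 and the call was lost (limma adjusted p = 0.219), as it was without heading array 1 (0.123) or heading array 3 (0.0854).

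PR5, a thaumatin-like pathogenesis-related protein, read 2408, 2154 and 2056 at heading and 990.8, 1564 and 632.4 at grain filling. Every heading array exceeded every grain filling array, but those of grain filling were spread over more than a 2-fold range, and the change was not called (-1.14, 95% interval -1.97 to -0.31, limma adjusted p = 0.113). XIP-I, an inhibitor of fungal xylanases, went from 179.1 ± 64 to 82.36 ± 30.5 without overlap (-1.02, interval -1.87 to -0.17, limma adjusted p = 0.173). Glc1 changed by 0.36 (-0.08 to 0.81) and TaGlu1a, a beta-glucosidase that releases benzoxazinoid toxins, by -0.52 (-1.35 to 0.31).

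GSTZ1 encodes a zeta-class glutathione transferase, which takes part in the breakdown of tyrosine. It was measured by 3 probe sets, of which 2 were called lower. One read 4003, 3829 and 3763 at heading and 2740, 2840 and 2785 at grain filling. Both stages formed tight sets far apart from each other (-0.47 ± 0.1, limma adjusted p = 0.00886, 1.38-fold). The other called one went from 1895 ± 247 to 1234 ± 217 (limma adjusted p = 0.0215), and it kept its call in 2 of 6 fits that left out an array, with limma adjusted p up to 0.132 without grain filling array 1. The brightest was also lower on all grain filling arrays, from 5205 ± 243 to 4104 ± 533, and was not called (-0.35, 95% interval -0.60 to -0.10, limma adjusted p = 0.107).

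No other redox gene was called, and the 6 tested genes had a median of -0.18. The catalase CAT1, which removes hydrogen peroxide, read 31390, 36450 and 34450 at heading and 24850, 31260 and 30960 at grain filling. The highest grain filling array fell just below the lowest heading array (-0.24, 95% interval -0.44 to -0.04, limma adjusted p = 0.177). The glyoxalase lgul gave 0.29 (-0.10 to 0.68), Prx1 -0.12 (-0.44 to 0.20), PER1 -0.52 (-1.21 to 0.16) and the phytochelatin synthase TaPCS1 0.02 (-0.45 to 0.49).

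The fall of APRT was small and even. APRT, adenine phosphoribosyltransferase, recycles adenine into AMP, and it also acts on cytokinins. It read 9943, 9624 and 9307 at heading and 6704, 7540 and 7496 at grain filling. The gap between the lowest heading array and the highest grain filling array was wider than the spread within either stage (-0.41 ± 0.0827, limma adjusted p = 0.00605, 1.33-fold). AdSS, adenylosuccinate synthetase of the same purine pathway, went from 3542 ± 189 to 2820 ± 365 and was not called (-0.33, 95% interval -0.66 to -0.01, limma adjusted p = 0.254).

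Of 7 translation genes, 1 was called. eIF4E, the factor that binds the cap of messenger RNAs, read 3564, 3799 and 3518 at heading and 3051, 2716 and 3114 at grain filling. The stages did not overlap, and the fall was the smallest of the named calls (-0.29 ± 0.0764, limma adjusted p = 0.0293, 1.23-fold). It held in 1 of 6 fits that left out an array. The other initiation factors gave -0.16 for Eif4B (95% interval -0.34 to 0.02), 0.02 for eIF-2-beta (-0.18 to 0.22) and -0.13 for the cap-binding protein NCBP (-0.38 to 0.12). The ribosomal protein RPL9 gave 0.30 (-0.09 to 0.69), RPS29 0.31 (-0.94 to 1.55) and the elongation factor TEF1 0.05 (-0.16 to 0.26).

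Photosynthesis genes gave 0 calls of either direction among 7, with a median of 0.04. The large subunit of Rubisco, rbcl, which fixes carbon dioxide, read 53050, 57180 and 49110 at heading and 79670, 62190 and 58010 at grain filling on its brightest probe set. All grain filling arrays were above all heading arrays, with array 1 the highest (0.32, 95% interval 0.03 to 0.60, limma adjusted p = 0.219), and after quantile normalization the change of rbcl was 0.07 (limma adjusted p = 0.667). The transcript is made in the chloroplast, and 12 probe sets of rbcl were tested, 0 of them called. The Rieske protein petC of the cytochrome b6f complex also had no overlap, from 34280 ± 1780 to 41250 ± 4430 (0.26, interval 0.04 to 0.48, limma adjusted p = 0.181), with 0.16 for petC after quantile normalization (limma adjusted p = 0.192).

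The phosphoribulokinase PRK, an enzyme of the Calvin cycle, read 44370, 55600 and 42970 at heading and 52690, 47650 and 53350 at grain filling. The stages overlapped, and the change was 0.11 (95% interval -0.10 to 0.32), or -0.06 after quantile normalization. FBP, a fructose bisphosphatase, gave 0.04 (-0.15 to 0.23). The photosystem II proteins PsbP and PsbO gave -0.03 (-0.22 to 0.17) and -0.10 (-0.38 to 0.18), and the thioredoxin Trx-M gave -0.01 (-0.19 to 0.17). On these brightest probe sets none of the 5 intervals reached below -0.38 or above 0.32. The second probe set of PsbP went from 20710 ± 1230 to 16390 ± 3420, with overlap, and was not called (-0.36, interval -0.698 to -0.015, limma adjusted p = 0.249).

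Wheat leaves and stems hold fructans as a sugar reserve, and fructan exohydrolases release fructose from them. Neither of the exohydrolases was called. 1-FEH read 7556, 6860 and 7903 at heading and 10280, 8196 and 8008 at grain filling. The stages did not overlap, although heading array 3 and grain filling array 3 nearly met (0.24, 95% interval -0.03 to 0.51, limma adjusted p = 0.339). 6-FEH went from 614.9 ± 61.9 to 789 ± 150 on its brightest probe set, without overlap (0.34, interval -0.20 to 0.88, limma adjusted p = 0.531). Its second probe set went from 307.9 ± 14.4 to 545.3 ± 92.1, also without overlap (0.79, interval 0.03 to 1.55, limma adjusted p = 0.251). A dim probe set of 6-FEH gave -0.39 (-1.21 to 0.42). The subunits of ADP-glucose pyrophosphorylase, the first committed step of starch synthesis, gave 0.10 for AGA.1 (-0.12 to 0.31) and -0.00 for AGP-S (-0.20 to 0.20). The beta-amylase BMY1 was dim on all 6 arrays. For sugar phosphates, the phosphoglycerate kinase Pgk-1 gave -0.13 (-0.43 to 0.18), GAPN, a dehydrogenase of glyceraldehyde phosphate, 0.22 (-0.11 to 0.55), the phosphomannomutase PMM -0.34 (-1.01 to 0.33) and the phosphofructokinase PFK 0.57 (-0.09 to 1.23).

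LEA proteins and dehydrins protect cells during drying, and they were near the lower end of the signal range in these wet leaves. Of 5 such genes, 2 were tested and 0 were called. LEA1 read 81.03, 46.63 and 47.7 at heading and 47.39, 18.55 and 6.95 at grain filling. Array 1 of grain filling lay between the lowest heading arrays (-1.09, 95% interval -2.08 to -0.10, limma adjusted p = 0.22). The dehydrin Rab15 read 78.55, 14.97 and 74.12 at heading and 39.24, 36.89 and 65.26 at grain filling, with full overlap (-0.04, with an interval that reaches up to 0.93), and the sign of this change turned in 6 of 17 other settings.

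PEAMT1 and FKBP70 had separated arrays and sizeable changes without a call. Over all tested probe sets the arrays of the stages did not overlap for 22.7%. PEAMT1, phosphoethanolamine methyltransferase of choline synthesis, read 26130, 24450 and 27910 at heading and 6111, 22740 and 15600 at grain filling. Grain filling array 1 was the lowest by far, and the change was -1.01 (95% interval -1.68 to -0.35, limma adjusted p = 0.0782). The other methyl group genes gave 0.04 for SAHH (-0.19 to 0.28) and 0.06 for COMT1, a methyltransferase of lignin synthesis (-0.27 to 0.38). FKBP70, a co-chaperone and prolyl isomerase, read 9164, 10550 and 9194 at heading and 5601, 7384 and 7379 at grain filling. It did not pass the threshold (-0.51, interval -0.82 to -0.21, limma adjusted p = 0.05 after rounding). UBC1, a ubiquitin-conjugating enzyme, gave -0.04 (-0.24 to 0.16), and PIMT, which repairs damaged aspartates in proteins, -0.06 (-0.51 to 0.39).

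The remaining lists added no rise. Among 5 tested genes for grain storage proteins and inhibitors 0 were called (median 0.03), among 2 for anther and pollen 0 (median -0.36), and among 10 genes outside any list APRT alone (median -0.07). The other 24 named genes did not pass the filter on low signals at all. The plot of the named genes by list shows wide intervals for the dim gibberellin, LEA and storage protein genes.

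**Figure D3:**
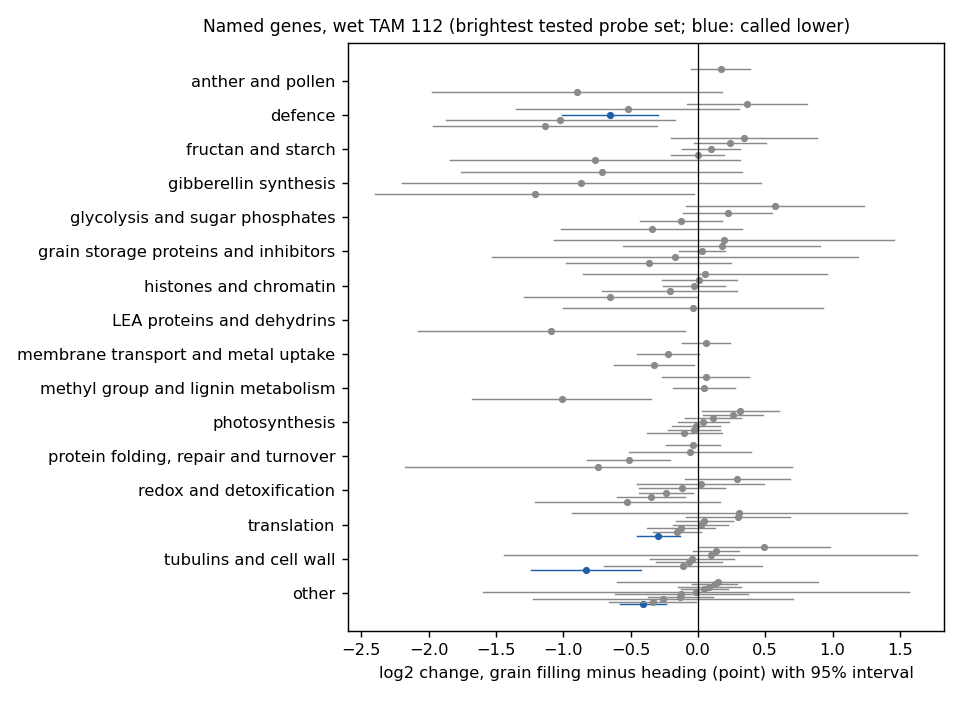
Log2 change from heading to grain filling (points) with 95% intervals (lines) for the brightest tested probe set of 78 named genes in wet TAM 112, grouped by list on the vertical axis. Blue marks the 4 called genes, LTP3, eIF4E, Tubb5 and APRT, all below 0; the photosynthesis genes lie in a narrow band around 0.04.

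Most called probe sets carried no gene name. Among probe sets with a group mean above 385.6 and no gene in the table, the one that rose the most read 212.4, 173.9 and 156.8 at heading and 7310, 3443 and 4257 at grain filling. Even the lowest grain filling array was many times above every heading array (4.64 ± 0.416, limma adjusted p = 1.45e-06, 24.9-fold). The next, also without a gene, read 10.86, 30.31 and 32.21 at heading and 708.1, 372.7 and 256.6 at grain filling (3.60 ± 0.535, limma adjusted p = 4.21e-04). It went from background to a clear signal on all 3 arrays.

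The 2 largest falls of all tested probe sets belonged to loci known only by number. LOC542946 read 1249, 458 and 4064 at heading and 34.18, 36 and 68.35 at grain filling. The heading arrays differed from each other several-fold and yet all lay far above grain filling (-4.58 ± 0.738, limma adjusted p = 9.25e-04, 24-fold). LOC100125679 read 262.1, 70.99 and 976.5 at heading and 6.731, 8.293 and 2.675 at grain filling (-4.01 ± 0.83, limma adjusted p = 0.00729). Its heading signal was again highest on array 3, and without that array the change was -3.11 and not called (limma adjusted p = 0.0675).

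By the gene table, 68 of 649 tested genes had a called probe set, 21 of them higher and 47 lower, and 0 had calls in both directions. Counted over probe sets, 4.33% of all tested were called, 2.06% higher and 2.27% lower. A gene was counted when any of its probe sets was called, so the shares of genes and of probe sets cannot be compared. Of 847 tested probe sets of loci known only by number, 74 were called. In the brightest class of all tested probe sets 9.05% were called, so the counts are not a result about the listed genes. All 21 genes that rose were loci known only by number, as were 39 of the 47 that fell. Such loci made up 88.2% of the genes with a call and 88% of the genes tested. In 13 genes at least 2 probe sets were called. The following loci were chosen after their values were seen. LOC542989 fell on all 3 probe sets, by 1.88 to 2.92 on the log2 scale. Of these, the one that fell the most read 994.8, 659.6 and 894.5 at heading and 64.97, 107.2 and 144 at grain filling, with every heading array far above every grain filling array (limma adjusted p = 2.55e-04). LOC543463 fell on all 4 of its probe sets, by 0.58 to 0.79. LOC543372 rose on all 3, by 0.43 to 0.75, and on the brightest it went from 26090 ± 2740 to 37400 ± 5070 (limma adjusted p = 0.00602, and 0.0509 without grain filling array 1).

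Among the loci that rose, LOC542853 read 264.6, 517.8 and 957.6 at heading and 2104, 7189 and 11780 at grain filling. The arrays within each stage spread widely, but the lowest grain filling array was more than 2-fold above the highest heading array (3.44 ± 0.564, limma adjusted p = 0.00112, 10.8-fold). LOC543152 went from 633.9 ± 155 to 1587 ± 155 (1.34 ± 0.173, limma adjusted p = 1e-04). LOC780687 rose on both probe sets, and on the brighter one it read 1540, 1533 and 1857 at heading and 7560, 2798 and 5089 at grain filling. All grain filling arrays were higher, but the call on this probe set (1.53, limma adjusted p = 0.0275) held in only 1 of 6 fits that left out an array.

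Among the loci that fell, LOC542855 read 9326, 5574 and 7202 at heading and 1063, 1251 and 1399 at grain filling. The grain filling arrays were close to each other and far below every heading array (-2.54 ± 0.3, limma adjusted p = 4.36e-05, 5.81-fold). LOC606310 went from 1684 ± 300 to 493.8 ± 186 (-1.80 ± 0.245, limma adjusted p = 1.63e-04).

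The same stages were sampled in wet TAM 111, on arrays that share none with wet TAM 112. There 1028 probe sets (2.74%) were called. An array of each stage of wet TAM 111 lay between the cultivars in its signals, and what this does to the overlap was not tested. Both cultivars had calls on 571 probe sets, of which 569 went the same way and 2 did not. The 569 are 35.1% of the list of TAM 112 and 55.4% of that of TAM 111. Of the 1623 probe sets called in TAM 112, 94.8% had the same sign in TAM 111, against 64.4% of all tested probe sets. Their median size was 0.864 in TAM 112, on whose arrays they were called, and 0.515 in TAM 111. In wet TAM 111 the GAPDH 3' to 5' log2 ratio was -1.43 ± 0.747 (SD) at heading and -2.43 ± 0.48 at grain filling. For actin it was 0.12 ± 0.264 and 1.5 ± 1.26. Both means moved the same way as in wet TAM 112, and the part of this in the shared changes was not tested. The probe set with the largest rise in TAM 112 rose in TAM 111 by 3.76 (limma adjusted p = 2.39e-05) and LOC542946 fell there by 3.90 (0.00443). LTP3 changed by -0.65 (limma adjusted p = 0.0428), the clearest probe set of wcH2B-8 by -0.68 (0.0393) and that of GSTZ1 by -0.48 (0.00997). Other named falls of TAM 112 were not called in TAM 111. The change there was -0.13 for the brightest probe set of Tubb5 and -0.32 for DMAS1 (limma adjusted p = 0.827 and 0.293). For APRT it was -0.27 and for eIF4E -0.24 (limma adjusted p = 0.0832 and 0.106). The second called probe set of wcH2B-8 gave -0.19 (limma adjusted p = 0.778).

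When the stage change of TAM 112 was tested against that of TAM 111, limma called 0 probe sets, and 1968 (5.25%) had an unadjusted p below 0.05. So no change was shown to be particular to TAM 112. An array of each wet TAM 111 stage was among 3 TAM 111 arrays that lay between the cultivars. Without these 3 the test also called 0. The smallest p-values among named genes belonged to 1 probe set each of RPS29 (-1.24), GA20ox1d (-2.01), rbcl (-1.58), Tubb5 (-0.91) and wcH2B-8 (-0.82), with limma adjusted p between 0.885 and 0.933. For GA20ox1d, the probe set that fell in TAM 112 gave -0.23 in TAM 111, while the other one gave -1.94 there (limma adjusted p = 0.84 and 0.0721).

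**Figure D4:**
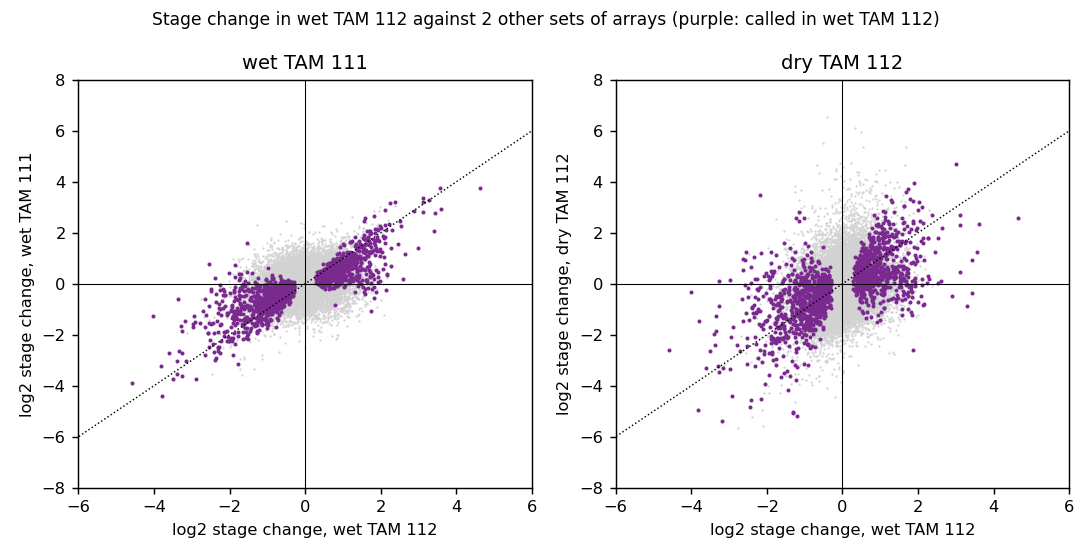
Log2 stage change in wet TAM 111 (left) and dry TAM 112 (right) against that in wet TAM 112, with 1 point for each of 37516 tested probe sets; purple marks the 1623 called in wet TAM 112 and the dotted line equal change. On the left 94.8% of the purple points have the same sign in both, against 64.4% of all tested probe sets. On the right the shares are 80.5% and 60.3%.

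In dry TAM 112, again on separate arrays, the same stages differed on 12327 probe sets (32.9%). Calls in both water treatments were made on 1008 probe sets, of which 913 went the same way and 95 in opposite directions. The 913 are 56.3% of the wet list and 7.41% of the dry list. The test of the difference between the wet and the dry stage change called 5428 probe sets (14.5%), 3118 above 0 (8.31%) and 2310 below 0 (6.16%). Among the 78 named genes it called 23, of which 15 were above 0 and 8 below. Each gene was taken by its brightest probe set, and the share called was not compared with that of equally bright probe sets. The count is therefore not a result about the named genes. After quantile normalization 18 of the 23 were called, and the others were PRK, PsbP, Trx-M, TSA and TEF1.

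LEA1 differed most in size among named genes. In dry leaves it read 562, 137.8 and 137 at heading and 4091, 3229 and 2032 at grain filling. It rose there by 3.69 on the log2 scale, with no overlap (limma adjusted p = 4.72e-06), while the wet value was -1.09, a difference of -4.77 (limma adjusted p = 1.33e-04). GSTZ1 had the smallest p of the named genes: on the probe set with the clearest fall it fell by 0.47 in wet leaves and rose by 0.59 in dry ones (difference -1.06, limma adjusted p = 8.29e-05). PR5 fell by 3.92 in dry leaves, 2.78 beyond its uncalled change in wet ones (limma adjusted p = 0.00231). The difference was 1.39 for tubb3, 1.27 for Pgk-1 and 1.46 for RPL9 (limma adjusted p = 2.39e-04, 4.5e-04 and 9.24e-04), all of which fell in dry leaves and were not called in wet ones. 1-FEH rose by 1.12 in dry leaves, with a difference of -0.88 (limma adjusted p = 0.00261).

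**Figure D5:**
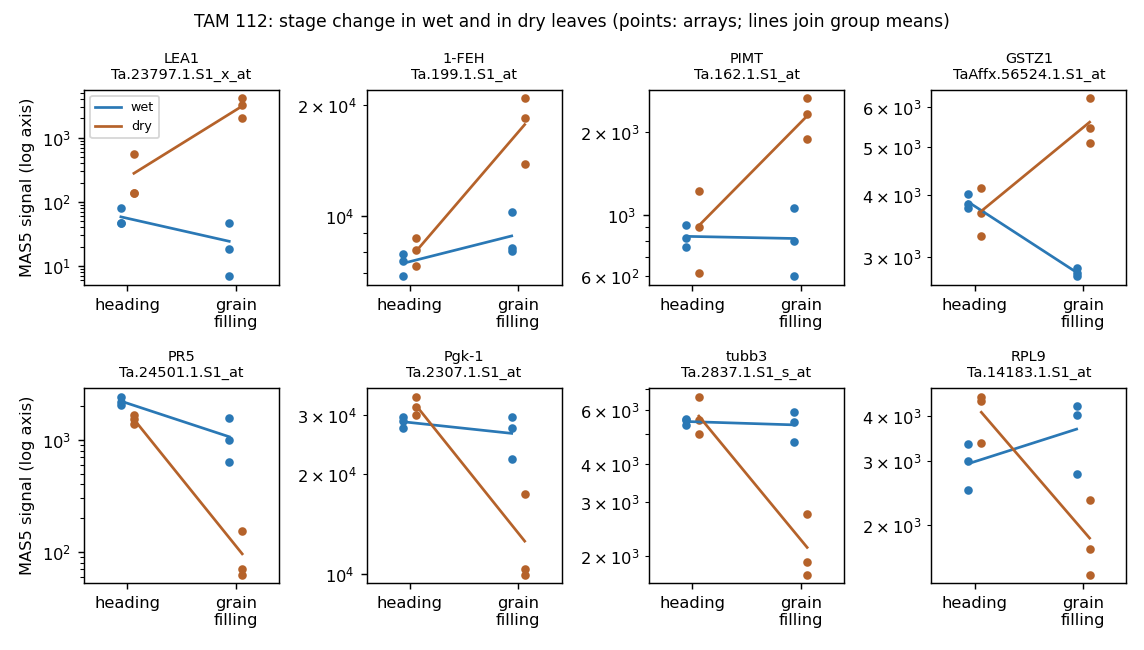
MAS5 signals (log axes) of 8 named genes in TAM 112 at heading and grain filling, wet (blue) and dry (brown). Points are the 3 arrays of each group and lines join group means. The wet lines of 1-FEH, PIMT, Pgk-1, tubb3 and RPL9 are nearly level beside the dry ones, and GSTZ1 fell in wet and rose in dry leaves.

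Of 39 locus-number genes that fell in wet leaves, 4 rose in dry ones with the difference called, and of 21 that rose in wet leaves 2 fell in dry ones. Over all probe sets, 95 of the 1623 called in wet leaves were called the opposite way in dry ones, whether or not the difference was called. Whether the loci depart from that share was not tested. The pair with the largest differences are given here, chosen after their values were seen. LOC542855 read 3842, 2636 and 2938 at heading and 8419, 8356 and 5890 at grain filling when dry, so that all dry grain filling arrays were above dry heading, the reverse of the wet order (difference -3.80, limma adjusted p = 1.52e-05). LOC543338, called lower on both of its probe sets, went on one of them from 197 ± 40.9 to 88.89 ± 51.2 in wet leaves (limma adjusted p = 0.032) and from 472.3 ± 168 to 3304 ± 369 in dry ones (difference -3.97, limma adjusted p = 1.02e-05). The wet fall of LOC543338 was called in 2 of 6 fits that left out an array, and the difference in all 12.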

How the data were processed

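RNA of 24 flag leaf samples was measured on 1 Affymetrix wheat array each. The authors deposited 1 intensity value per probe set, a signal made, per the submitters' processing notes, with MAS5, whose release is not given in the sources used here. On every array the trimmed mean, with 2% taken from each end, was 500.1.

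From these signals, 111 AFFX control probe sets were left out, 11.71 (the 20th percentile) was added, and log2 taken. A mean for each of 8 groups was fitted to 24 arrays with limma 3.58.1 in R 4.3.3 (eBayes with trend, 16 residual and 5.53 prior degrees of freedom). Errors are limma's SE and 95% intervals, or SD of 3 arrays. The number of arrays limits precision. The fit was tested on simulated data in which 200 probe sets changed. It called 57% of the 2-fold and 83% of the 4-fold changes in the right direction, and 6 of its 146 calls were false. A probe set that was not called may thus still have changed.

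Genes came from the platform's table, and 770 of its 771 genes were found in RefSeq. Since that reference gives no descriptions, gene lists were drawn from gene names. Named are called genes, the 5 named genes of smallest p in each difference, up to 5 members of each list, LEA1, Rab15, PR5, 6-FEH, 1-FEH, rbcl, PRK and the largest changes without a name; further list members and loci were added after their values were seen. Members and lists were chosen with earlier results of these data known. Alternatives were the pseudocount, quantile normalization, the filter, the arrays fitted, array weights, the variance trend, the replicate block and each array left out. Same-numbered heading and grain filling arrays correlated at 0.0289, -0.0459 and 0.0817 in their deviations from the group means, so the numbers were not taken as pairs.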

Additional observations from a re-analysis of the deposited data

Results flagged for a closer look

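The genes below are given because the test of the difference itself set the stage change of wet TAM 112 apart from that of dry TAM 112. Each value is the wet minus the dry change on the log2 scale, called by limma at an adjusted p below 0.05, and 5428 (14.5%) of all tested probe sets were called likewise. In defence the difference was -1.14 for Glc1, 2.78 for PR5 and -2.36 for XIP-I. In sugar metabolism it was -0.88 for 1-FEH, 1.08 for GAPN and 1.27 for Pgk-1. In photosynthesis it was 0.59 for FBP, 0.63 for PRK, 0.44 for PsbP and 0.50 for Trx-M, and after quantile normalization only FBP of these 4 was called. LEA1 stood at -4.77, PIMT at -1.41, lgul at 1.17, WZF1 (a zinc finger protein) at -1.72 and TSA at 0.38. GSTZ1 gave -0.58 on its brightest probe set and -1.06 on the one with the clearest wet fall. In translation the difference was -0.41 for eIF4E, 1.46 for RPL9 and 0.56 for TEF1.

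Among tubulins it was 1.42 for tubb2, 1.39 for tubb3 and 0.75 for Tubb4. For chromatin it was 0.55 for Hmgb3 and 0.77 for wcH2B-8 on the probe set with its clearest wet fall. GA20ox1d gave -1.99 on the probe set that was tested only because of its wet heading signal. Some of these calls rested on single arrays. In 12 fits that each left out an array, the difference was called in 3 for wcH2B-8, 5 for TSA, 5 for WZF1, 6 for GSTZ1 on its brightest probe set, 7 for tubb2, 7 for Hmgb3 and 7 for PsbP, and in all 12 for the others given here. The loci LOC542855 and LOC543338, at -3.80 and -3.97, were chosen after their values were seen. The GAPDH 3' to 5' log2 ratio, which was -0.94 and -2.73 in wet leaves, was -1.14 ± 0.357 (SD, n = 3) at heading and -1.06 ± 0.487 at grain filling in dry ones, and its part in these differences was not tested.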

How the results depend on the processing

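The count of 1623 changed as follows. With only the groups compared in the fit it was 631 (265 higher, 366 lower). Leaving out each array in turn gave 622 to 1670 in all, 265 to 781 higher and 357 to 889 lower. In the other planned settings it was 1139 (no variance trend) to 1925 (filter at the 75th percentile, 385.6). With the replicate block it was 1907, of which 1589 were among the 1623. Without 3 TAM 111 arrays that lay between the cultivars it was 1543, and without reporter probe sets 1624, both chosen after seeing the data. The difference from TAM 111 gave 0 calls in all settings but leave-one-out, where it gave 0 to 2 (1 without TAM 112 heading array 2, 1 without TAM 111 heading array 3, 2 without TAM 111 grain filling array 1). The difference from dry leaves gave 3520 (without dry grain filling array 1) to 7419 when arrays were left out, and 5922 with the replicate block. Quantile normalization moved the median of all tested probe sets to -0.00421.

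The change of Rab15 turned to 0.0274 with a pseudocount of 1 and 0.0261 with array weights, and ran from -0.613 to 0.266 when arrays were left out, with 0.27, 0.23, 0.05 and 0.08 without heading array 1, heading array 3, grain filling array 1 and grain filling array 2. That of PRK was -0.0573 after quantile normalization. The cause was not tested. The calls of the clearest probe sets of wcH2B-8 and GSTZ1, the 2 largest rises without a gene and LOC542946 held in every setting run on them. That of GA20ox1d held as well, but the probe set passed the filter only through its heading arrays and could not be tested with the filter at the 75th percentile. APRT lost its call only with the compared groups alone in the fit (limma adjusted p = 0.0743). For the probe sets followed through the settings, 1050 planned values kept side and direction, 115 lost their call and 7 turned. Followed were the called probe sets of named genes, genes named in any case, the largest unnamed changes, and chosen loci and differences. The other named genes and loci were not followed. The 1050 include values that were not called in the main fit and stayed so, and are thus not a measure of how stable the calls were.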
